A study of Mus musculus with 10 samples.

Results

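The comparison described here is the change from proliferation to differentiation medium in mouse neural stem cells with a deletion of Atrx. It rests on 6 of the 10 RNA sequencing libraries of the study: 3 lines labelled as Atrx-deleted, named mA16d#4, mA19d#4 and mA19d#7, were each sampled once per medium. All cells of the study, controls included, were p53-null and had been transduced with the mutant enzyme IDH1(R132H). Proliferation medium held EGF and bFGF at 20 ng/ml. Differentiation medium was neural basal medium with B27 and no growth factor, applied for 8 days. The 2 control lines (Control NSC#1 and Control NSC#2), sampled once in each of the same media, are used only where the responses are set side by side. The sources used here do not give how the lines were derived, which part of Atrx was removed or whether a line is 1 clone. Whether the lines are independent of one another is not given either. The p-values of the main fit measure the spread between libraries of different line labels, estimated over the deleted and control groups together.

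Neural stem cells in culture divide as long as EGF and FGF are present. When the factors are withdrawn they usually leave the cell cycle and start to express genes of astrocytes, oligodendrocytes or neurons, while Notch signalling through Hes and Hey repressors holds cells in the progenitor state. Atrx remodels chromatin and acts with Daxx to load H3.3, a histone variant, onto heterochromatin and telomeres.

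Values are in TPM (transcripts relative to the library total), a level corrected for gene length, and each library holds the same set of values after the authors' normalisation. Depth is unknown, so no counting error can be given. Changes are differences of log2(TPM + 1), differentiation minus proliferation, which understate the change of genes with low levels. Of 21101 genes, the 15660 that reached 1 TPM in 2 or more libraries were tested with limma, and a gene was called at an adjusted p below 0.05.

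Atrx itself was measured at 71.6 TPM in mA16d#4, 42.8 in mA19d#4 and 74.0 in mA19d#7 in proliferation medium, and at 54.4, 47.2 and 54.0 TPM in differentiation medium. The 4 control libraries held 127 to 163 TPM, above all 6 libraries of the deleted lines. Whether the remaining Atrx transcripts lack the deleted part cannot be seen in a value per gene. Trp53 transcripts were also present in all 6 libraries, although the cells are labelled p53-null. The neural stem and glial progenitor genes Sox2 (364 to 705 TPM), Nes (319 to 753 TPM) and Olig2 (455 to 1411 TPM) were expressed in each. Of the neuronal markers, Stmn2 was at or below 0.0204 TPM in all 6, while Map2 (358 to 903 TPM), Tubb3 (50.1 to 372 TPM) and Dcx (7.17 to 53 TPM) were expressed in both media. The microglial and vascular markers Cx3cr1, Ptprc, Cdh5 and Rgs5 were at or below 0.0728 TPM. Of the same classes, Aif1 reached 1.47 TPM, Csf1r 1.16 TPM, Pecam1 2.64 TPM and Kdr 2.51 TPM.

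One library goes against its label. Between the proliferation libraries of mA16d#4 and mA19d#7, 57 genes were on in one line (at least 10 TPM) and off in the other (at most 1 TPM). The differentiation library labelled mA19d#7 was nearer to mA16d#4 in 55 of these 57 genes (96.5%), and the differentiation library of mA16d#4 was nearer to its own line in 52 (91.2%). Of the 67 genes that separate mA16d#4 from mA19d#4, the library labelled mA19d#7 was nearer to mA16d#4 in 65, and the other pair kept to their own lines in 62 and 63. Stmn3, a stathmin family gene, stood at 0.908, 170 and 93.6 TPM in proliferation medium (mA16d#4, mA19d#4 and mA19d#7, the order used throughout) and at 0.992, 162 and 1.34 TPM in differentiation medium. Hoxd8, a homeobox gene, gives the mirror image, with 31.9, 0.0129 and 0.341 TPM before and 24.2, 0.00391 and 41.8 TPM after. Both were chosen as examples after their values were seen. The rank correlation of the differentiation library labelled mA19d#7 was 0.957 with the proliferation library of mA16d#4 and 0.926 with that of its own label. The lines mA19d#4 and mA19d#7 were close to each other in proliferation medium, with 5 on/off genes between them. Their rank correlation was 0.976, against 0.953 and 0.954 with mA16d#4.

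**Figure D1:**
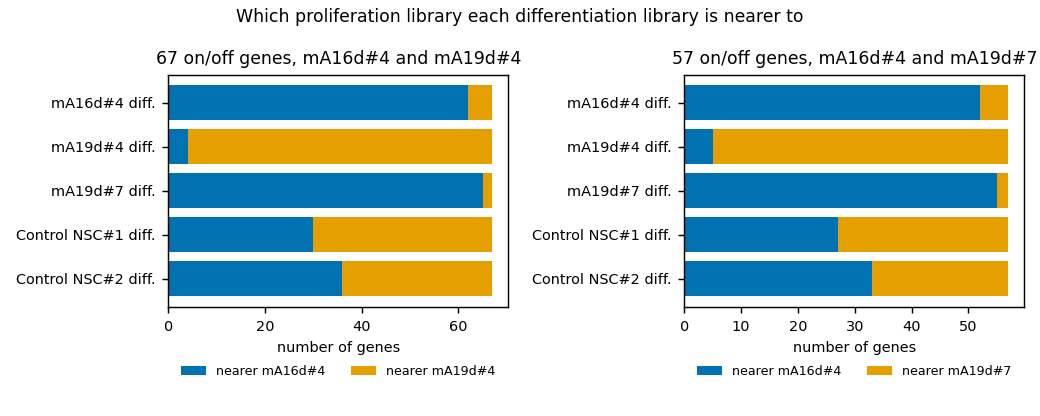
For 67 genes on in one of mA16d#4 and mA19d#4 and off in the other (left) and 57 such genes for mA16d#4 and mA19d#7 (right), horizontal bars count the genes (x axis, number of genes) for which each differentiation library (y axis) was nearer to one or the other proliferation library. The library labelled mA19d#7 was nearer to mA16d#4 in 65 of 67 and in 55 of 57 genes.

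The label was not changed, and results are given with and without this differentiation library, called here the library labelled mA19d#7. If the label is wrong, the differentiation group may not hold each deleted line once. It also stood apart in its levels: 349 genes were at least 2-fold above all 5 other libraries of the deleted lines, against 30 to 130 for each of the others. At least 2-fold below all others were 171 genes, as many as for the differentiation library of mA16d#4 (171).

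In the fit to all 10 libraries, 13 of 15660 genes (0.083%) passed between media in the deleted lines, of which 2 rose (0.0128%) and 11 fell (0.0702%), and 2319 genes had an unadjusted p below 0.05. Without the library labelled mA19d#7, 348 genes (2.22%) passed, 152 upwards (0.971%) and 196 downwards (1.25%), and all 13 were among them (3.74% of the 348). Without both libraries of that label 35 passed. With the cell line as a block, 6 passed with all libraries, 5 of them among the 13, and 335 passed without both mA19d#7 libraries, all 13 among them. The control lines changed in 706 genes (4.51%) in the same fit, 305 upwards (1.95%) and 401 downwards (2.56%). The control count was not stable either. It was 1447 without the library labelled mA19d#7 and 2080 with the controls fitted alone. It fell when any control library was left out, which leaves a single library in that group.

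The counts for the deleted lines depend on single libraries and on the control groups that share the estimate of spread. Leaving out any 1 of the 4 control libraries left 1 gene. Leaving out the proliferation library of mA19d#4 or mA19d#7 left 0 (1480 and 1868 at an unadjusted p below 0.05 in limma), and leaving out the differentiation library of mA16d#4 or mA19d#4 left 2 and 53. When the deleted lines were fitted without the controls, 0 genes passed in limma, with 1592 at an unadjusted p below 0.05 and a lowest adjusted p of 0.231. The median SD over genes was 0.264 and 0.353 log2 units in the deleted groups in proliferation and differentiation medium, and 0.148 and 0.141 in the control groups.

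Line by line, with 1 library per medium and no test, 971 genes (6.2%) were at least 2-fold higher and 1279 (8.17%) at least 2-fold lower in mA16d#4, 814 (5.2%) and 1211 (7.73%) in mA19d#4, and 1464 (9.35%) and 1441 (9.2%) under the label mA19d#7. In all 3 lines 51 genes (0.326%) were at least 2-fold higher and 71 (0.453%) at least 2-fold lower. In mA16d#4 and mA19d#4 the numbers were 194 (1.24%) and 293 (1.87%), and in the 2 control lines 656 (4.19%) and 724 (4.62%). Across genes, the changes of mA16d#4 and mA19d#4 had a Pearson r of 0.316, against 0.603 for the control lines. The changes under the label mA19d#7 had an r of -0.0262 with mA16d#4 and 0.124 with mA19d#4. They pair the library in doubt with the proliferation library of its label, so they may not be changes within 1 line. The same holds for its part in the counts over all 3 lines. Genes are not independent replicates, and these r are descriptions.

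**Figure D2:**
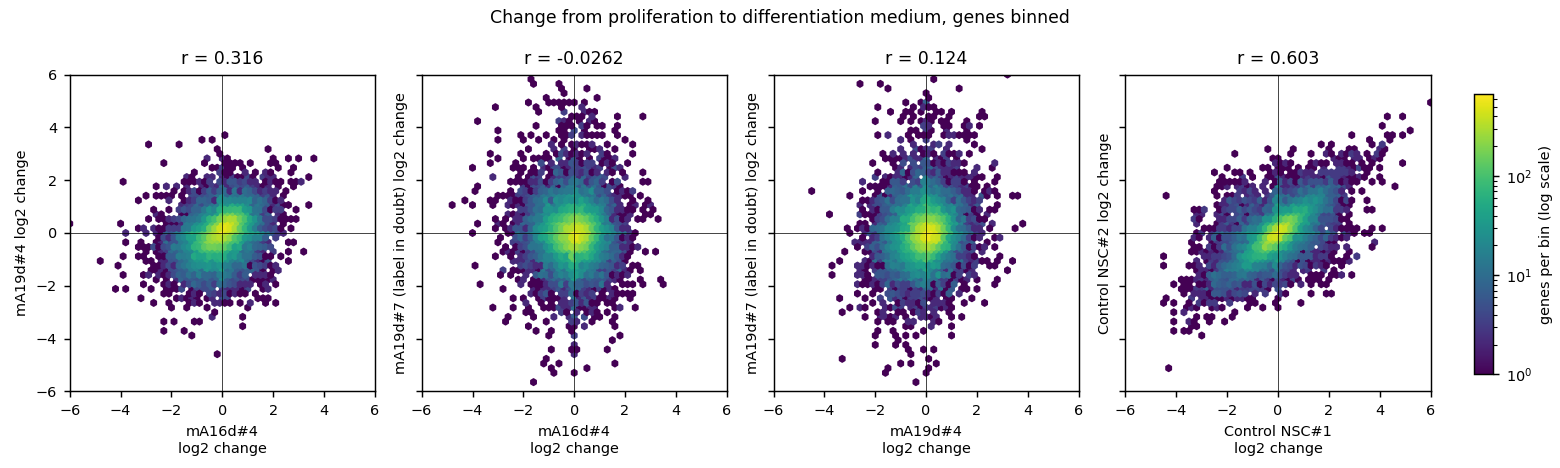
Each panel bins the 15660 tested genes by their log2 change, differentiation minus proliferation, in one line (x axis) and another (y axis), with colour giving genes per bin on a log scale and axes drawn from -6 to 6. The cloud is elongated for the control lines (r = 0.603), less so for mA16d#4 and mA19d#4 (r = 0.316), and without slope for mA16d#4 and the label mA19d#7 (r = -0.0262).

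The deleted lines differed among themselves in the genes of mitosis. Of 30 cell cycle and mitosis genes, 0 were called in the deleted lines by limma, with 6 at an unadjusted p below 0.05, all lower, where 14.8% of all tested genes had such a p (7.48% higher and 7.33% lower). In the control lines 23 of the 30 were called, all lower, against 2.56% of all genes. Without the library labelled mA19d#7 the count was again 0, with 10 at an unadjusted p below 0.05, all lower. Of all genes 21% had such a p in that fit, 9.83% lower. In mA16d#4 the median change of the 30 genes was -1.61 and 26 of them were at least 2-fold lower. In mA19d#4 the median was -0.177 with 1 gene at least 2-fold lower, and under the label mA19d#7 it was -0.033 with 1. That last change pairs the library in doubt with the proliferation library of its label. The proliferation library of mA16d#4 held the highest of the 6 values in 22 of the 30 genes (73.3%), against 13.9% of all genes. Its differentiation library held the lowest in 29 (96.7%), against 17.4%. The medians were -2.58 and -2 in the control lines, and 0.024, 0.025 and -0.0146 over all tested genes in the 3 deleted lines. In bulk libraries, fewer dividing cells and less RNA per cell cannot be told apart.

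Mki67, the proliferation antigen, stood at 190, 169 and 170 TPM in proliferation medium and at 55.6, 163 and 90.5 TPM in differentiation medium. It was far below the proliferation range in mA16d#4 and under the label mA19d#7, and just below it in mA19d#4. The change was -0.90 ± 0.34 (SE, n = 3 per medium; limma adjusted p = 0.258), against -3.24 ± 0.41 in the controls (limma adjusted p = 0.00532), where Mki67 went from 306 and 171 TPM to 23.1 and 23.5 TPM. Ccnb1, the mitotic cyclin B1, went from 183, 117 and 113 TPM to 35.8, 97.9 and 95.9 TPM. Cdk1, the kinase that cyclin B activates, stood at 60.1, 46.9 and 50.5 TPM before and 18, 43.9 and 48.6 TPM after. For both genes the low value was that of mA16d#4. Ccnb2, cyclin B2, was at least 2-fold lower in each of the 3 lines (12.1, 46.1 and 26.9 TPM before, 3.2, 15.2 and 6.63 TPM after), and its test gave -1.68 ± 0.58 with a limma adjusted p of 0.23. Its groups overlapped, since mA19d#4 ended above the level at which mA16d#4 began. Mki67 was to be named whatever its values, and the other members of this list were chosen after their values were seen.

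The response of the deleted lines minus that of the controls was positive for 8180 of all 15660 tested genes, and for 29 of these 30 genes. In this interaction test 23 of them had an unadjusted p below 0.05, against 1099 of 15660 genes, and none passed after adjustment (lowest limma adjusted p 0.288, or 0.182 without the library labelled mA19d#7). For Mki67 the difference was 2.34 ± 0.53 with a limma adjusted p of 0.331. Of 30 genes of DNA replication 0 were called in the deleted lines (3 at an unadjusted p below 0.05 in limma) and 4 fell in the controls, with medians of -0.444 in mA16d#4, 0.012 in mA19d#4 and -0.1 under the label mA19d#7.

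**Figure D3:**
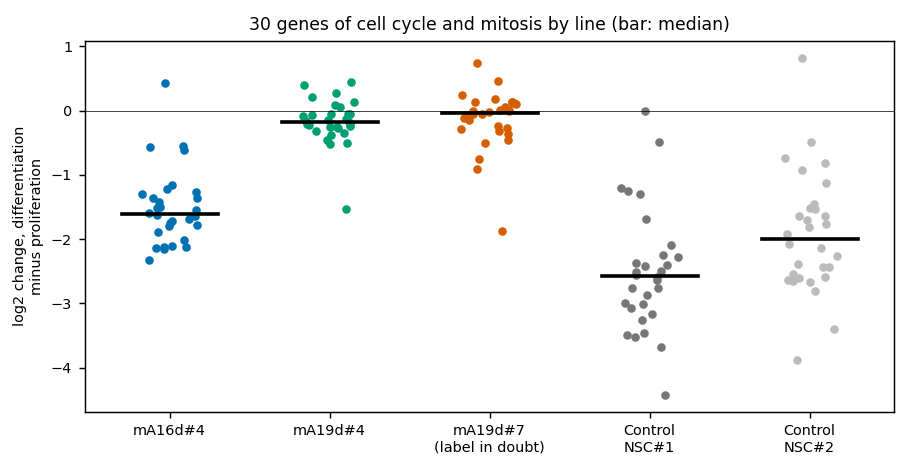
Points are the 30 genes of the cell cycle and mitosis list, placed by log2 change from proliferation to differentiation medium (y axis) in each line (x axis), with a bar at the median. The median of mA16d#4 (-1.61) lies between those of the control lines (-2.58 and -2) and those of the other deleted lines (-0.177 and -0.033).

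Mitotic genes are known to be switched off in resting cells through a short promoter element, the cell cycle genes homology region (CHR), bound by the DREAM complex. Their promoters often also hold the CCAAT box, bound by NF-Y. RefSeq promoters of GRCm38.p6, each 300 bases long with 250 before the start, were matched for 23 of the 30 genes (24 promoters). The letters TTTGAA of the CHR, on either strand, were in 75.0% of them and in 17.9% of all 32851 promoters. CCAAT, on either strand, was in 83.3% against 37.4%, and both were in 70.8% against 6.95%. For the replication genes both were in 6.9% of 29 promoters. A match of letters is a description, not a bound site. The 3 promoters with both motifs whose genes had the lowest changes in mA16d#4 are shown, because these genes separate the lines. Promoters on a single chromosome were left out before this choice, so a gene there could have a lower change. They are read 5′ to 3′ on the gene's strand with TTTGAA and CCAAT, or their reverse complements, in capitals. Cdc20, an activator of the anaphase-promoting complex, lies on the minus strand (chr4:118437294-118437593). Cenpf, a kinetochore protein, also lies on the minus strand (chr1:189688037-189688336), and Plk1, a mitotic kinase, on the plus strand (chr7:122159185-122159484).
Cdc20: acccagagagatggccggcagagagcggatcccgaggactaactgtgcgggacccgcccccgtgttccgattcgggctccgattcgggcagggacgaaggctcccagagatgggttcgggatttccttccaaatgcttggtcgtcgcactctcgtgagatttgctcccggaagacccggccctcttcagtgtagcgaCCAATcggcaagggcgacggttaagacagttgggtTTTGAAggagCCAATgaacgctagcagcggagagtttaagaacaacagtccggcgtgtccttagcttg
Cenpf: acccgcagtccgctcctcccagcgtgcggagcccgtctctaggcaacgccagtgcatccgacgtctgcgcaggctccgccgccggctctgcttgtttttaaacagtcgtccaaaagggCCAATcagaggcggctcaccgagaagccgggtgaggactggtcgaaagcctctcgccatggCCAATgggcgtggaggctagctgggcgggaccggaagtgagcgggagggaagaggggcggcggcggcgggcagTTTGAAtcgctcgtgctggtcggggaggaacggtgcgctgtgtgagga
Plk1: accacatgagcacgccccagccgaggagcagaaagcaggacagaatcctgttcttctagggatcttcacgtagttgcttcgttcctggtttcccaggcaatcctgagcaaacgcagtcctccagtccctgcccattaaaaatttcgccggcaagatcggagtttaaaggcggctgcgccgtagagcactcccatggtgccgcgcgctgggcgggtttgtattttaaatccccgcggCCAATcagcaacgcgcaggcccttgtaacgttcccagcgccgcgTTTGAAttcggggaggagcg

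Cdc20 was measured at 155, 83.5 and 61.0 TPM in proliferation medium and at 34.2, 63.6 and 84.2 TPM in differentiation medium. Its changes were -2.15 in mA16d#4, -0.39 in mA19d#4 and 0.46 under the label mA19d#7, against -2.63 and -2.65 in the control lines. Cenpf changes were -2.13, -0.05 and 0.13 in the deleted lines and -3.52 and -2.66 in the controls. For Plk1 they were -2.13, -0.32 and -0.51, and -2.60 and -2.59 in the controls. The low values in mA16d#4 follow from how these 3 genes were chosen and are a description.

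In each of the 13 genes called with all libraries the 3 deleted lines moved the same way, as they did in 5278 of all tested genes (33.7%). All but Gramd1a were named by a rule on size, level and absence of overlap, and Gramd1a was added as the remaining called gene. Their libraries do not overlap between media, which was also so for 1355 of all tested genes upwards (8.65%) and 1230 downwards (7.85%).

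Cadm2, a synaptic cell adhesion molecule, stood at 5.46, 3.67 and 4.68 TPM in proliferation medium and at 29.5, 25.4 and 16.1 TPM in differentiation medium. It rose by 2.11 ± 0.28 (SE; limma adjusted p = 0.0361, and 0.0103 without the library labelled mA19d#7). Negr1, an adhesion molecule of growing neurites, went from 2.59, 2.85 and 4.84 TPM to 11.8, 17.2 and 15.5 TPM, a rise of 1.86 ± 0.27 (limma adjusted p = 0.0488). Both also rose in the controls, by 1.55 and 1.71, and for either gene both control libraries in differentiation medium were above those of the deleted lines. The controls were above the deleted lines in proliferation medium too, at 11.9 and 19.5 TPM for Cadm2 and 9.97 and 9.09 TPM for Negr1.

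Tle2 encodes a Groucho-type corepressor, which works with Hes repressors, and Tle6 a divergent member of that family. The genes are neighbours on chromosome 10 (81574561 to 81590845 on the plus strand and 81590904 to 81601073 on the minus strand, GENCODE M21 on GRCm38). Tle6 went from 123, 118 and 114 TPM to 39.9, 41.1 and 30.3 TPM. It fell by 1.66 on the log2 scale (SE 0.15), with the lowest limma adjusted p of all genes in the fit to all libraries (0.00775). Its adjusted p was 0.00235 without the library labelled mA19d#7. Tle2 went from 77.9, 78.4 and 68.2 TPM to 22.4, 29.7 and 34.2 TPM and fell by 1.37 (SE 0.18; limma adjusted p = 0.0349). The control lines began at like levels and ended at 14.6 and 14.9 TPM for Tle6 and 9.49 and 11 TPM for Tle2, below all 3 deleted lines. The genes lie end to end on opposite strands and the strandedness of the counting is not given, so reads may be shared between them.

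Myadm, a membrane protein of myeloid and other cells, had the largest change of the 13. It went from 43.8, 113 and 97.9 TPM to 10.9, 9.86 and 11.2 TPM, a fall of 2.78 on the log2 scale (SE 0.38; limma adjusted p = 0.0361), and in the controls its change of -1.70 did not pass (limma adjusted p = 0.0675). Col28a1, a collagen of the peripheral nervous system, went from 65.7, 66.4 and 81.1 TPM to 8.74, 15.5 and 18.9 TPM and fell by 2.28 (SE 0.29; limma adjusted p = 0.0349). Ptp4a3, a phosphatase linked to cell growth, went from 81.7, 145 and 189 TPM to 34.7, 22.5 and 25.2 TPM and fell by 2.24 (SE 0.29; limma adjusted p = 0.0349). For Myadm and Ptp4a3 mA16d#4 began lowest of the 3 lines. Acy3, an aminoacylase, fell by 2.29, the rhomboid-like protein Rhbdl3 by 1.76, the diacylglycerol kinase Dgkz by 1.52, the oestrogen receptor Gper1 by 1.5 and Gramd1a, a sterol transfer protein, by 1.06, with limma adjusted p between 0.0349 and 0.0488.

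Rpl12, a ribosomal protein gene, went from 306, 356 and 250 TPM to 89.7, 122 and 121 TPM in the deleted lines and fell by 1.45 (SE 0.21; limma adjusted p = 0.0488). In the controls it stood at 129 and 156 TPM before and 149 and 226 TPM after. Ribosomal protein genes have processed copies across the genome, so the value is uncertain. Of the 13 genes, 9 were also called in the controls in the same direction (69.2% of the 13 and 1.27% of the 706), and Myadm, Acy3, Rpl12 and Gramd1a were not called there. Both responses share the estimate of spread, so these joint calls are not independent. The test of the difference between deleted and control lines passed for none of the 13 with all libraries.

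**Figure D4:**
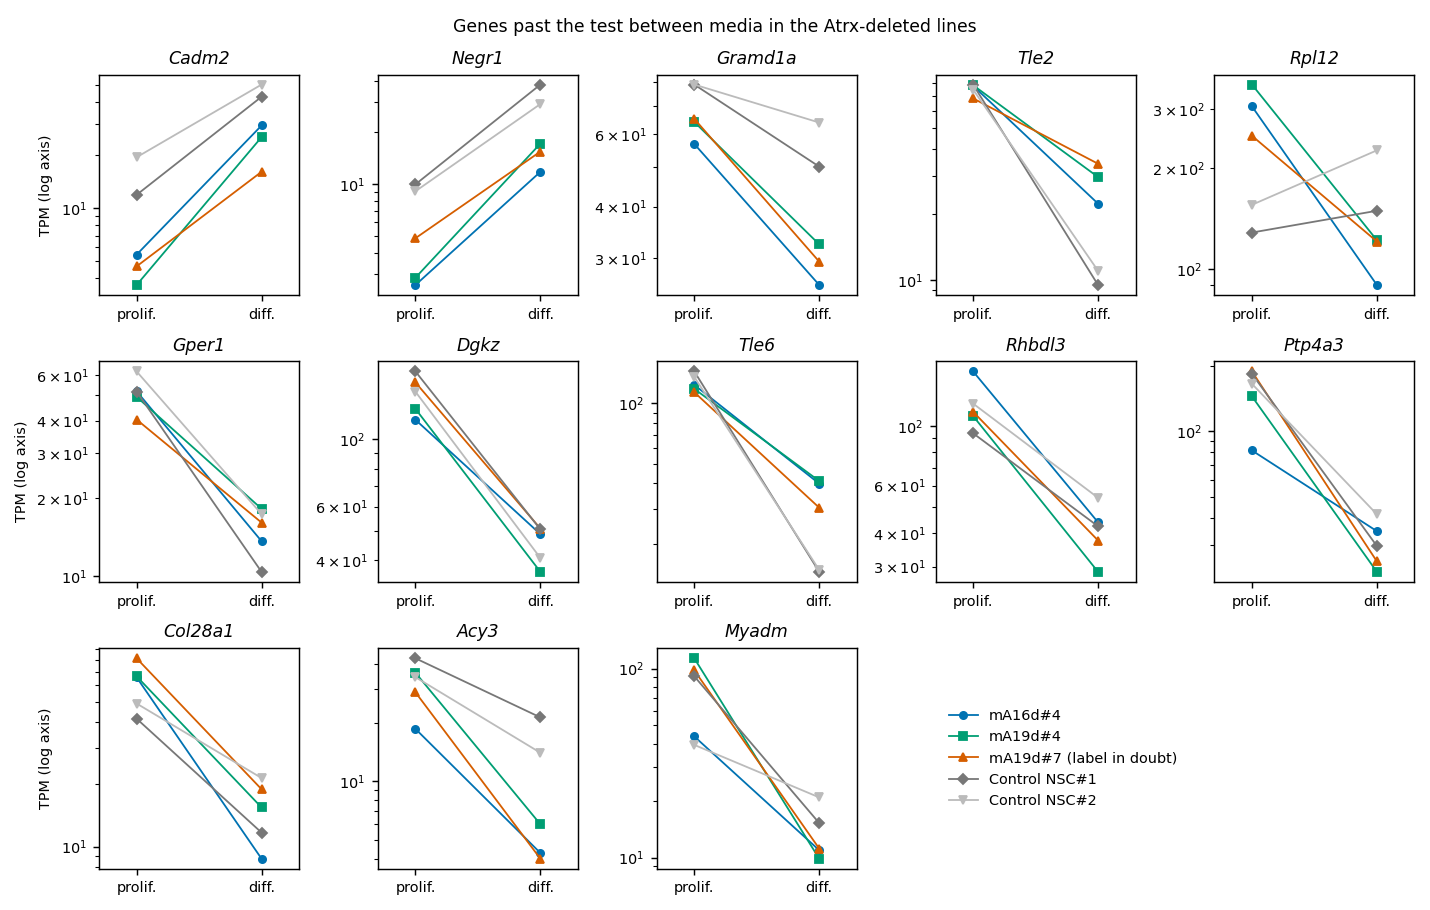
Each panel gives 1 of the 13 called genes as TPM (y axis, log scale) in proliferation and differentiation medium (x axis), with a line joining the libraries that share a line label. The deleted lines (coloured) separate fully between media in each panel, and the control lines (grey) run the opposite way for Rpl12.

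Each of the 13 passed the test in 8 (Negr1) to 22 (Tle6) of 31 alternative settings. None changed sign, which leaving out libraries could not bring about, because their libraries do not overlap between media. With the line as a block, Acy3, Col28a1, Rhbdl3, Tle6 and Dgkz stayed below 0.05 (limma adjusted p = 0.0432 for each), and the other 8 did not.

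Genes with the largest change in the line where they changed least, and a mean of 5 TPM or more in the higher group, were named next. Ucma, a cartilage matrix protein, went from 0.0052, 0.0334 and 0.0218 TPM to 5.45, 4.01 and 19.6 TPM, and in the controls from 0.0343 and 1.03 TPM to 34.5 and 29.6 TPM. Its test gave 3.10 ± 0.51 (limma adjusted p = 0.0692, and 0.0223 without the library labelled mA19d#7). Mfsd2a, a transporter of lysophospholipids with omega fatty acids, went from 46.0, 28.3 and 12.5 TPM to 162, 116 and 220 TPM (2.61 ± 0.39; limma adjusted p = 0.0539, and 0.0339 without that library). All 3 lines were higher, and both controls were higher still at 392 and 317 TPM. Lppr1, a phospholipid phosphatase-related protein of neurites, went from 2.20, 1.69 and 1.55 TPM to 18.7, 17.6 and 8.40 TPM (2.43; limma adjusted p = 0.0539, and 0.0108 without it). Ak5, an adenylate kinase of brain, gave 2.25 (limma adjusted p = 0.0692) and the growth factor Gdf6 2.73 (limma adjusted p = 0.0997). On the lower side Fbln2, an extracellular matrix protein, went from 8.67, 353 and 430 TPM to 1.05, 25.0 and 0.518 TPM, with a limma adjusted p of 0.177. The line mA16d#4 began far below the other two. The value of 0.518 TPM is that of the library in doubt, so the change to it may not be a change within 1 line. Rcn3, a calcium-binding protein of the secretory pathway (-2.73; limma adjusted p = 0.144), and the receptor Gpr20 (-2.83; limma adjusted p = 0.0755) were lower in each line as well.

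Without the library labelled mA19d#7 the test rests on 3 proliferation and 2 differentiation libraries. In that fit 335 genes were called that were not called with all libraries, and the control lines, none of whose libraries was left out, went from 706 to 1447 called genes (9.24%). Of the 348, 247 (71%) had the same direction in that library's pair and 59 (17%) at least 2-fold. Of all tested genes, 9.35% were at least 2-fold higher and 9.2% at least 2-fold lower in that pair. Its proliferation library was also in the fit that called the 348, so part of this agreement is built in. In the controls 327 (94%) had the same sign, and 86 were called in the same direction (24.7% of the 348 and 12.2% of the 706). The share of all tested genes with the same sign was not counted. The 706 are the control calls with all libraries, and the overlap with the 1447 was not counted. The estimate of spread covers both deleted and control groups, so joint calls are not independent. When each group had its own weight, 25 passed, and when the deleted lines were fitted alone, 0 passed in limma (2396 at an unadjusted p below 0.05).

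Among the 5 largest rises called only without that library, Lhfpl3, a tetraspan membrane protein of oligodendrocyte precursors, went from 20.4, 53.7 and 85.2 TPM to 246 and 368 TPM in mA16d#4 and mA19d#4, with 23 TPM under the label mA19d#7. It rose by 2.70 ± 0.48 (limma adjusted p = 0.0339, and 0.465 with all libraries). Nrxn3, a presynaptic neurexin, went from 1.3, 3.57 and 1.09 TPM to 14.3 and 17.2 TPM, with 1.95 TPM in the library left out (2.57; limma adjusted p = 0.0218). Fa2h, which makes hydroxylated myelin lipids, went from 1.09, 0.798 and 0.816 TPM to 7.86 and 10.1 TPM, with 1.47 TPM in that library (2.39; limma adjusted p = 0.0205). Dpp10, a subunit of A-type potassium channels, rose by 3.04 (limma adjusted p = 0.0439), and Lppr1, given above, by 2.77. In these 5 genes the library labelled mA19d#7 lay below the other differentiation libraries.

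Among the 5 largest falls, Junb, an immediate early transcription factor, went from 28.6, 17.5 and 29.7 TPM to 0.868 and 4.96 TPM, with 61.7 TPM under the label mA19d#7 (-2.94 ± 0.46; limma adjusted p = 0.0235, and 0.502 with all libraries). Rgs8, a regulator of G protein signalling, went from 60.3, 45.2 and 34.4 TPM to 8.55 and 6.23 TPM, with 56.4 TPM in that library (-2.48; limma adjusted p = 0.0218). Rgs16, of the same family, was low in that library too: 45.4, 33.7 and 59.5 TPM became 10.6, 7.11 and 15.3 TPM (-2.25; limma adjusted p = 0.0457 without it and 0.0997 with it). Gpr20 and the serotonin receptor Htr3a were the other two, with falls of 2.54 and 2.31.

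Trp53 transcripts went from 66.0, 68.8 and 69.9 TPM to 133, 121 and 87.5 TPM. All 3 differentiation libraries were above all proliferation libraries, and the 4 control libraries held 52.6 to 59.6 TPM. The change was 0.71 ± 0.17 with a limma adjusted p of 0.113, and 0.88 ± 0.13 with 0.0213 without the library labelled mA19d#7. The interaction gave 0.73 with a limma adjusted p of 0.608. Of 17 p53 target genes 0 were called in the deleted lines by limma with all libraries (1 at an unadjusted p below 0.05) or without that library (4). Cdkn1a, the cell cycle inhibitor p21, stood at 68.1, 67.2 and 59.0 TPM before and 99.6, 46.0 and 33.6 TPM after, higher in mA16d#4 and lower in the others.

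The 35 gene lists were described by their counts and medians, beside 0.083% called and a median of 0.0114 over all genes. With all libraries 1 member of any list was called, Cadm2 among 28 adhesion and axon guidance genes. The other lists had 0 called members by limma. Counts at an unadjusted p below 0.05, given for the lists described below, are to be read beside 14.8% of all genes. Without the library labelled mA19d#7, against 2.22% of all genes, 19 of the 35 lists had none.

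Of 20 progenitor genes 0 were called with all libraries (5 at an unadjusted p below 0.05 in limma, all lower). Nes, the intermediate filament nestin, went from 753, 618 and 652 TPM to 319, 456 and 486 TPM, below the proliferation range in all 3 lines (-0.70 ± 0.19; limma adjusted p = 0.161, and 0.0621 without the library labelled mA19d#7), and fell in the controls by 1.15 (limma adjusted p = 0.0262). Sox2, a transcription factor of stem cells, did not move one way, at 705, 444 and 460 TPM before and 364, 562 and 638 TPM after. Vim, vimentin, went from 4185, 3019 and 3902 TPM to 1338 and 1232 TPM in mA16d#4 and mA19d#4 and to 7897 TPM under the label mA19d#7. It fell by 1.51 without that library (limma adjusted p = 0.0243).

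Of 15 genes of the Notch pathway 0 were called by limma and 6 had an unadjusted p below 0.05, all lower. The libraries did not overlap between media, downwards, in 6 of the 15, against 7.85% of all genes. The list's medians were -0.602 in mA16d#4, -0.549 in mA19d#4 and -0.592 under the label mA19d#7, and -0.0885 and -0.0604 in the controls. Hes5, a repressor induced by Notch, went from 992, 555 and 399 TPM to 282, 192 and 54.5 TPM (-2.06 ± 0.54; limma adjusted p = 0.145). Each differentiation library was below each proliferation library. Hes1, a repressor of the same family, went from 47.9, 75.3 and 67.5 TPM to 23.7, 35.7 and 26.9 TPM (-1.11 ± 0.24; limma adjusted p = 0.0997), and the Notch modifier Mfng from 49.8, 56.3 and 34.9 TPM to 32.5, 19.9 and 7.97 TPM (limma adjusted p = 0.178). The ligand Dll1 went from 308, 269 and 245 TPM to 193, 215 and 95.4 TPM (limma adjusted p = 0.239). Hey1, another repressor, went from 281, 181 and 163 TPM to 158, 120 and 114 TPM, and was higher by 0.39 and 0.38 in the 2 control lines. Its interaction of -1.03 did not pass (limma adjusted p = 0.533), and 1 of the 15 genes had an unadjusted p below 0.05 in that test. These Notch genes were chosen after their values were seen.

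Of 25 astrocyte genes 7 rose in the controls, against 1.95% of all genes, and 0 were called in the deleted lines by limma (9 at an unadjusted p below 0.05, 8 of them higher, against 7.48% of all genes higher). Slc1a2, the glutamate transporter GLT-1, went from 34.4, 24.2 and 58.7 TPM to 297, 98.4 and 115 TPM. The differentiation libraries were all higher, by 2.00 ± 0.42 (limma adjusted p = 0.0946, and 0.049 without the library labelled mA19d#7), and the controls reached 421 and 372 TPM. Slc4a4, a bicarbonate transporter, went from 49.0, 48.5 and 71.8 TPM to 170, 115 and 86.9 TPM (1.09; limma adjusted p = 0.108, and 0.0326 without it). Id3, a target of BMP signalling, went from 494, 378 and 348 TPM to 102 and 79.6 TPM, with 233 TPM in the library left out, and fell by 2.14 without it (limma adjusted p = 0.00262). The astrocyte marker Aldh1l1 was lower in each line, from 18.6, 30.1 and 27.1 TPM to 17.3, 16.5 and 4.82 TPM. S100b, another marker, was higher in mA16d#4 and lower in the others (141, 108 and 114 TPM before, 260, 24.0 and 55.8 TPM after). Gfap, the glial filament protein, was at 50.0, 6.87 and 19.3 TPM before and 79.5, 3.49 and 1411 TPM after. The water channel Aqp4 stood at 20.3, 6.75 and 6.96 TPM before and 19.2, 3.93 and 86.0 TPM after. For both genes the highest value of the 6 was in the library labelled mA19d#7. The list's medians were 0.874 in mA16d#4, 0.0928 in mA19d#4 and 0.567 under that label, against 1.31 and 0.888 in the controls.

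Of 23 neuronal genes 0 were called by limma (4 at an unadjusted p below 0.05, all higher). Tubb3, neuronal tubulin, went from 172, 294 and 372 TPM to 247, 363 and 50.1 TPM, and Map2, a microtubule protein of dendrites, from 553, 430 and 536 TPM to 903, 760 and 358 TPM. In both the library labelled mA19d#7 was lowest of the 6, and without it Map2 gave 0.72 with a limma adjusted p of 0.0593. Mllt11, a microtubule-associated protein of neurons, was the member of this list that passed without that library. It went from 42.2, 36.6 and 41.4 TPM to 78.9 and 61.4 TPM, with 41.5 TPM in the library left out, and rose by 0.78 (limma adjusted p = 0.0434). Dcx, doublecortin of migrating neurons, was higher in each line (33.7, 9.08 and 7.17 TPM before, 53, 19.5 and 16.7 TPM after), yet its levels overlapped between media and the limma adjusted p was 0.511. Of 24 synapse and ion channel genes 0 were called with all libraries (6 at an unadjusted p below 0.05 in limma). Without the library labelled mA19d#7, 4 rose and 1 fell. The potassium channel Kcnd2 rose by 1.65 (limma adjusted p = 0.0498) and the neuroligin Nlgn1 by 1.53 (limma adjusted p = 0.0218), while Dlg4, the postsynaptic scaffold PSD-95, fell by 0.93 (limma adjusted p = 0.0326). Under the label mA19d#7 the changes were 0.18 for Kcnd2, -0.18 for Nlgn1 and -0.55 for Dlg4.

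Of 19 oligodendrocyte genes 0 were called by limma (2 at an unadjusted p below 0.05, both lower). Gpr17, a receptor of committed precursors chosen after its values were seen, went from 37.0, 153 and 58.7 TPM to 411, 636 and 15.6 TPM, and had a limma adjusted p of 0.054 without the library labelled mA19d#7 (2.86). Olig2 stood at 1067, 955 and 1046 TPM before and 847, 1411 and 455 TPM after. The library labelled mA19d#7 held the lowest of the 6 values in 13 of the 19 genes (68.4%), against 22.8% of all tested genes.

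Of 16 immediate early genes, which respond within minutes to growth signals, 0 were called with all libraries by limma (4 at an unadjusted p below 0.05, 2 in each direction), and 4 fell without the library labelled mA19d#7. These were Junb, Fos (by 1.46; limma adjusted p = 0.0463), Jund (by 1.38; limma adjusted p = 0.0434) and Egr1 (by 1.36; limma adjusted p = 0.016). Fos stood at 40.1, 29.3 and 48.3 TPM before and at 18.4, 9.64 and 100 TPM after. Under the label mA19d#7 Jund changed by 1.70 and Egr1 by 0.18, both upwards. The medians were -1.02 in mA16d#4, -0.632 in mA19d#4 and 0.688 under the label mA19d#7. For 13 genes of MHC class I presentation, of which 1 had an unadjusted p below 0.05 with all libraries, they were -0.653, -1.01 and 0.815. H2-D1, a class I heavy chain, went from 189, 281 and 241 TPM to 120, 113 and 386 TPM and fell by 1.00 without that library (limma adjusted p = 0.0391). B2m, its light chain, stood at 434, 487 and 526 TPM before and 427, 334 and 1290 TPM after. Among 26 interferon response genes, of which 1 had an unadjusted p below 0.05, the library labelled mA19d#7 was highest of the 6 in 15 (57.7%), against 18.2% of all tested genes.

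**Figure D5:**
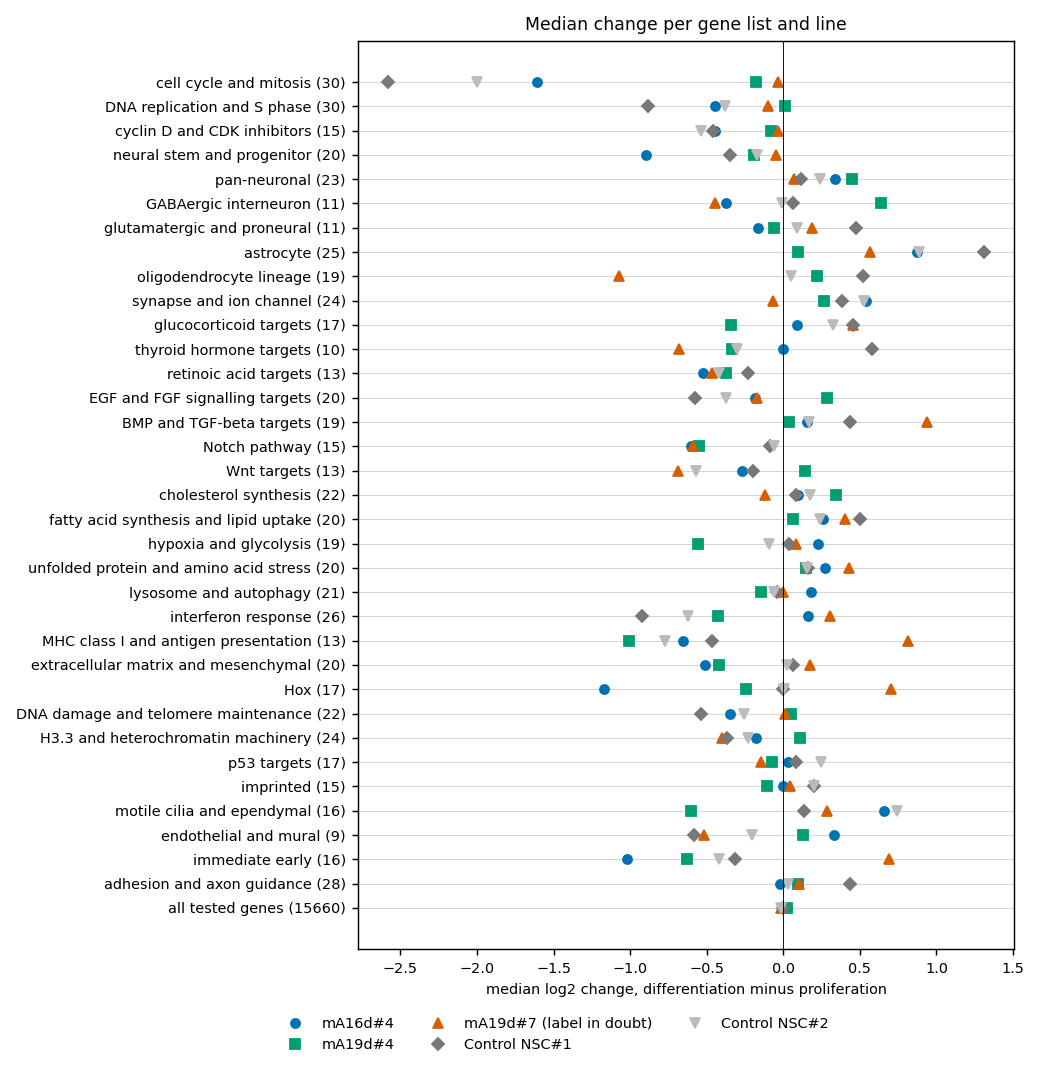
Each row is a gene list with at least 9 tested genes (number tested in brackets) and each point the median log2 change from proliferation to differentiation medium (x axis) in 1 line, with all 15660 tested genes in the last row. Mitosis genes split mA16d#4 (-1.61) from mA19d#4 (-0.177), the Notch medians of the 3 deleted lines lie together (-0.602 to -0.549), and the immediate early and MHC medians of the label mA19d#7 (0.688 and 0.815) are on the other side of 0 from the other deleted lines.

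Over all lists, 10 members rose and 16 fell without the library labelled mA19d#7 (61.5% falls, against 56.3% of the 348 called genes). Tnc, the matrix protein tenascin-C, went from 364, 220 and 150 TPM to 42.9, 56.3 and 161 TPM and fell by 2.20 without it (limma adjusted p = 0.0218), as it did in the controls by 3.34. Col4a1, a basement membrane collagen, fell by 1.35 (limma adjusted p = 0.0262). Ctsf, a lysosomal protease, fell by 1.75 (limma adjusted p = 0.0222) and the NF-kB inhibitor Nfkbia by 1.42 (limma adjusted p = 0.0103). Rarb, a retinoic acid receptor that retinoic acid induces, fell by 1.68 (limma adjusted p = 0.0322). Acsl6, which activates fatty acids for membrane lipids, rose by 1.05 (limma adjusted p = 0.0475), and Etv4, a transcription factor induced by FGF signalling, by 0.79 (limma adjusted p = 0.04). These values, from Col4a1 on, are from the fit without that library. With all libraries none of these genes passed (limma adjusted p 0.129 to 0.851). Under the label mA19d#7 Col4a1 changed by 0.06, Nfkbia by 0.23, Rarb by 0.16 and Etv4 by -1.03, the other way. Ctsf changed by -0.68 there and Acsl6 by 0.84, the same way.

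The difference between the responses of deleted and control lines passed the interaction test for 1 gene (0.00639%), with 1099 at an unadjusted p below 0.05. Tmem132b, a transmembrane protein gene, stood at 0.416, 0.343 and 0.0476 TPM in the deleted lines in proliferation medium and at 0.131, 0.0117 and 0.0899 TPM in differentiation medium. The controls went from 0.483 and 2.44 TPM to 87.6 and 105 TPM. The difference was -5.65 ± 0.58 (limma adjusted p = 0.0282, and 0.0371 without the library labelled mA19d#7). With the line as a block 0 genes passed in limma (1179 at an unadjusted p below 0.05), the lowest adjusted p being 0.128. No gene passed when any 1 library was left out other than the proliferation library of Control NSC#2 and the library labelled mA19d#7 (lowest limma adjusted p 0.0553 to 0.297). Without the latter 3 genes (0.0192%) passed, with 1823 at an unadjusted p below 0.05. Tle6 was one, with a response 1.64 ± 0.18 above that of the controls (limma adjusted p = 0.0371, and 0.146 with all libraries). Fam212b, an inhibitor of a p21-activated kinase, was the other new one: it stood at 217, 254 and 299 TPM before and 365, 454 and 57.0 TPM after, while the controls went from 347 and 349 TPM to 85.9 and 108 TPM. Its difference was 2.51 ± 0.26 without the library labelled mA19d#7 (limma adjusted p = 0.0371) and 1.58 ± 0.96 with it (limma adjusted p = 0.796), and that library was below both controls.

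Each deleted line shared part of what both controls shared. Of the 724 genes at least 2-fold lower in both controls, 272 (37.6%) were so in mA16d#4, 219 (30.2%) in mA19d#4 and 204 (28.2%) under the label mA19d#7. Of the 656 at least 2-fold higher, the numbers were 208 (31.7%), 133 (20.3%) and 237 (36.1%). Of all tested genes, 8.17%, 7.73% and 9.2% were at least 2-fold lower in these lines, and 6.2%, 5.2% and 9.35% at least 2-fold higher. Of the 706 genes called in the controls, 661 (93.6%) had the same sign in the fit of the deleted lines. That share over all tested genes was not counted. The control libraries carry another sample code prefix than the deleted ones, whose meaning is not given, so that prefix and Atrx status cannot be told apart.

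Markers of other cell types differed between libraries as well. The summed level of 21 ependymal and ciliary genes ranged from 129 to 174 TPM in proliferation and from 123 to 310 TPM in differentiation libraries of the deleted lines, and Foxj1, a regulator of motile cilia, was at 157 TPM under the label mA19d#7 and at 28.6 and 27.5 TPM in the others. The sum of 24 matrix and mesenchymal genes ranged from 1680 to 2470 TPM and from 1520 to 4040 TPM, while the fibroblast markers Col1a1 and Lum stayed at or below 4.41 and 1.62 TPM. The sums of 15 endothelial and mural genes ranged from 62.5 to 88.4 TPM and from 22.8 to 97.4 TPM, and those of 13 microglial genes from 6.90 to 15.6 TPM and from 8.55 to 18.3 TPM. Their part in the results was not tested.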

How the data were processed

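RNA of 10 libraries was sequenced from TruSeq RNA libraries and aligned with STAR to mm10, per the submitters' processing notes and the labels' protocols. The sources used here give neither tool versions nor strandedness. The authors deposited log2 TPM values. Sorted, the values are identical in every library, with a floor of -8 reached by 1213 genes per library, as quantile normalisation leaves them, so differences in total RNA cannot be seen. The analysis had been designed for TPM, so the deposited log2 values were converted back and a pseudocount of 1 TPM was added before testing.

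All 10 libraries were fitted with limma 3.58.1 (R 4.3.3) as 4 group means with a mean-variance trend and 6 residual degrees of freedom, and Benjamini-Hochberg adjustment over 15660 genes. The procedure was tested on simulated data. Exact permutation of 3 against 3 libraries cannot go below p = 0.1, so no such test is given.

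Line labels were taken as pairing in an alternative fit. Deviations from group means within a label had an r of 0.159 in mA16d#4, 0.404 in mA19d#4, 0.0624 in the controls and -0.194 for mA19d#7, whose differentiation library had 0.378 with the proliferation library of mA16d#4. The pairing comes from the line names.

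Genes were named by fixed rules: the 10 largest called rises and falls of at least 2-fold and 5 TPM without overlap between media; the 5 rises and 5 falls with the largest change in the line where the gene changed least; the 5 largest rises and falls called only without the library labelled mA19d#7; the 5 largest called interactions in each direction; up to 3 called members of each list in each direction; and Atrx, Daxx, Trp53, Idh1, Sox2, Nes, Tubb3, Dcx, Map2, Gfap, Aqp4, Olig2, Mki67, Egfr and Cdkn1a. Clone-type symbols were passed over, and not all named genes are printed. The members, lists and rules were chosen with earlier results of these data known. Positions came from GENCODE M21, where 15007 of the tested symbols had one position, and promoters from RefSeq.

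Alternatives covered the pseudocount, the filter on low values, the trend, the samples fitted, weights, scaling, the line as a block and each library left out.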

Additional observations from a re-analysis of the deposited data

Results flagged for a closer look

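The response of Tmem132b in the deleted lines minus that in the controls was -5.65 with all libraries and -5.66 without the library labelled mA19d#7, and the test of this difference passed in both fits (limma adjusted p = 0.0282 and 0.0371). For Tle6 the same difference was 1.64 and for Fam212b 2.51, and both passed only without that library (limma adjusted p = 0.0371 for each). Rpl12 was lower in all 3 deleted lines and higher in both control lines after differentiation. Its difference of -1.82 did not pass the test (limma adjusted p = 0.23), so opposite directions alone bring it here.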

How the results depend on the processing

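The number of genes called in the deleted lines (13) was 2 with no filter on low values, 0 without the trend (2166 at an unadjusted p below 0.05 in limma), 0 with the deleted lines fitted alone, 1 with a weight per group and 6 with the line as a replicate block. It was 335 with the block and both mA19d#7 libraries left out. Alternatives chosen after seeing the data left out the library labelled mA19d#7 and gave 321 on the deposited log2 scale, 25 with weights and 0 fitted alone. Leaving out single libraries or lines gave 0 to 348. The control count (706) was 2080 fitted alone, 2984 with weights, 1848 with the block and both mA19d#7 libraries left out, and, without the library labelled mA19d#7, 1334 on the deposited scale, 3050 with weights and 2080 fitted alone. Leaving out libraries or lines gave 0 to 1447.

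The interaction count (1) was 0 with pseudocounts of 0.1 and 0.5, with a filter of 5 TPM, on the deposited scale and with the replicate block, 30 with no filter, 2 without the trend, 6 with weights and 11 with the block and both mA19d#7 libraries left out. Without the library labelled mA19d#7 it was 2 on the deposited scale, 2 with weights and 3 fitted alone. Leaving out libraries or lines gave 0 to 3.

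Without the differentiation library labelled mA19d#7, or without both libraries of that label, 7 genes changed sign. Their values with the replicate block and both libraries left out, then without the library labelled mA19d#7 on the deposited scale, with weights and fitted alone, were 0.79, 0.68, 0.67 and 0.67 for Fam212b, 0.18, 0.032, 0.031 and 0.031 for Idh1, 0.41, 0.17, 0.17 and 0.17 for Tubb3, -0.075, -0.17, -0.081 and -0.081 for Gfap, -0.36, -0.18, -0.13 and -0.13 for Aqp4, 0.11, 0.098, 0.098 and 0.098 for Olig2, and 0.0030, 0.067, 0.068 and 0.068 for Cdkn1a. Etv4, Id1, Fos, Jund, H2-D1 and Sox2 changed sign when libraries of mA16d#4 or mA19d#4 were left out. Leaving out libraries or lines gave -0.81 to 0.79 for Fam212b, -0.24 to 0.82 for Etv4, -1.77 to 0.28 for Id1, -0.999 to 0.015 for H2-D1, -1.46 to 0.17 for Fos, -1.54 to 0.34 for Jund, -0.83 to 0.18 for Idh1, -0.30 to 0.41 for Sox2, -1.28 to 0.41 for Tubb3, -0.081 to 4.07 for Gfap, -0.36 to 1.94 for Aqp4, -0.77 to 0.11 for Olig2 and -0.70 to 0.068 for Cdkn1a. None of these 13 genes was called with all libraries. The cause was not tested. Over the named genes, 1701 of 2108 values kept their direction and side of the threshold, 237 lost the call, 115 gained it and 55 changed sign.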
